A study of Mus musculus with 7 samples.

Results

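The Ifi200 or PYHIN family is a cluster of interferon-inducible genes on mouse chromosome 1, and 9 of its genes were followed here through bone marrow-derived macrophages with and without transglutaminase 2 (Tgm2). They are Aim2, Ifi202b, Ifi203, Ifi204, Mnda, Mndal, Pydc3, Pydc4 and Pyhin1, taken by name out of 23337 genes measured in each library. The genes were chosen by family membership with earlier results of these data in view, among them the high TPM of Pydc3 in LPS-treated wild-type cells, so comparisons that hold those libraries are described for the family and not tested. RNA sequencing gave 7 libraries in 4 groups. KO LPS (n = 2) came from Tgm2 knockout mice and was treated with lipopolysaccharide (LPS) at 10 ng/ml for 6 hours. WT LPS (n = 2) was wild-type and received that LPS treatment as well. KO M0 (n = 1) was Tgm2 knockout and unstimulated, and WT M0 (n = 2) was wild-type and unstimulated. All donors were labelled male, aged 6 to 8 weeks, and all marrow was grown into macrophages for 7 days with the growth factor M-CSF at 25 ng/ml. The labels do not give a strain, the knockout allele or whether replicates came from separate mice, so the p-values below measure only the spread between these libraries. KO M0 has no replicate and is assumed in every test to vary like the other groups.

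PYHIN proteins typically join a pyrin domain, which binds other pyrin domains, to one or more HIN domains, which bind DNA. Not every member has both. Aim2 is the best understood: in the cytosol it binds double-stranded DNA and nucleates an inflammasome through the adaptor ASC (gene Pycard) and caspase-1, which matures interleukin-1 beta and interleukin-18. Many of the other members are nuclear, and in macrophages LPS acts on Toll-like receptor 4, which leads to type I interferon and in turn to interferon-stimulated genes.

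Levels are given as TPM, the number of transcripts of a gene in every 1000000 after scaling for length, and differences as log2(TPM + 1), which understates changes of low genes. Every library sums to 1000000 TPM, which keeps no depth, so no counting error can be given. Tgm2 was at 19.4 and 19.2 TPM in KO LPS, 233 and 199 TPM in WT LPS, 50.7 TPM in KO M0, and 433 and 368 TPM in WT M0. The 2 WT LPS libraries stood apart against their male label. Xist, transcribed from the inactive X chromosome of females, reached 47.2 and 55.4 TPM in WT LPS and did not exceed 0.00535 TPM in any of the other 5 libraries. The Y-linked gene Kdm5d had 3.42 and 5.00 TPM in WT LPS, with values between 8.75 and 14.5 TPM elsewhere. Counts of members in the comparisons that hold no WT LPS library are therefore also given from a fit without both. So are counts of pathway genes in KO LPS against KO M0. The part of these sex-linked signals in the differences that involve WT LPS was not tested. Of the macrophage markers searched for, 8 were in the tables and each was at 18.2 TPM or more in every library. The 5 B cell markers in the tables, of which Pax5 was listed at 0 in every library, summed to between 0.336 and 0.902 TPM in KO LPS, 0.0540 and 0.0671 TPM in WT LPS, 2.11 TPM in KO M0, and between 1.16 and 1.37 TPM in WT M0. The 6 T and NK cell markers were each below 1 TPM in every library. The 6 stromal markers summed to between 27.0 and 32.0 TPM in KO LPS, 21.5 and 23.6 TPM in WT LPS, 22.8 TPM in KO M0, and between 30.1 and 41.0 TPM in WT M0. Among them the collagen gene Col1a1 was at 1.18 and 1.56 TPM in KO LPS, listed at 0 in both WT LPS libraries, at 10.4 TPM in KO M0, and at 13.2 and 18.6 TPM in WT M0. The receptor gene Pdgfrb was at 27.7 and 19.9 TPM in KO LPS, 18.2 and 21.2 TPM in WT LPS, 1.93 TPM in KO M0, and 1.81 and 2.29 TPM in WT M0. Of the 7 neutrophil markers in the tables, 5 were below 1 TPM in every library and the rest were led by S100a8, at 96.9 and 152 TPM in KO LPS, 196 and 321 TPM in WT LPS, 5.01 TPM in KO M0, and 7.29 and 7.33 TPM in WT M0. The neutrophil list and Pdgfrb were higher and Col1a1 lower in every LPS library than in every unstimulated one, and their part in the LPS differences was not tested. In bulk RNA a change in the number of cells of a type and a change in RNA per cell cannot be told apart.

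All 9 genes lie between bases 173349547 and 173982844 of chromosome 1, a stretch of 633.298 kb, in the RefSeq annotation of GRCm38.p6. Its symbols matched 5 members and its synonyms matched 4, with Mnda listed as Ifi211, Pydc3 as Ifi208, Pydc4 as Ifi213 and Pyhin1 as Ifi209. Aim2 lies at one end (173349547 to 173466040) and Ifi202b at the other (173962569 to 173982844). Between them, in order, come Pydc4 (173566280 to 173599348), Pyhin1 (173630859 to 173647928), Pydc3 (173673628 to 173698393), Ifi204 (173747293 to 173767069), Mndal (173857215 to 173880382), Mnda (173896339 to 173913087) and Ifi203 (173920400 to 173942866). Several of these genes resemble one another at their promoters. A promoter window of 250 bases before to 50 after the start was found in the RefSeq promoter table for 8 of the 9 members, and for 10 of 11 genes when the neighbours Ifi205 and AI607873 are added. Ifi204 was not matched. The core of the interferon-stimulated response element, written GAAA, any 2 bases, then GAAA on either strand, was in a window of 5 of the 8 members (Ifi203, Mnda, Mndal, Pydc3 and Pydc4), in 7 of the 10 locus genes, and in 1131 of all 32851 windows, 3.44%. A gamma-activated sequence element (TTC, any 3 bases, GAA; either strand) was in 1 of the 8 (Ifi202b), against 8.30% of all windows, and a kappaB-like element (GGGA, any 2 bases, TTCC; either strand) was in 1 of the 8 (Pyhin1), against 1.47%. Members and locus genes are counted per gene, and a gene can have more than 1 window, whereas the shares over all are per window. A match is only a match of letters and no binding was measured. A stretch around 1 core of each of these 7 genes is shown because together they let the family's shared promoter stretch be read directly. Each is 50 bases of RefSeq GRCm38.p6, 5′ to 3′ on the gene's strand, with the core in capitals.
Pydc3, chr1:173673587-173673636, plus strand: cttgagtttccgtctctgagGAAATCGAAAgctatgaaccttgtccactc
Pydc4, chr1:173599316-173599365, minus strand: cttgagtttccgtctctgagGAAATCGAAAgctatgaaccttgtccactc
Mndal, chr1:173880194-173880243, minus strand: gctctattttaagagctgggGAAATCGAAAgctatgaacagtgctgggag
Ifi203, chr1:173942498-173942547, minus strand: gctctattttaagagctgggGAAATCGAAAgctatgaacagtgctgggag
Mnda, chr1:173913054-173913103, minus strand: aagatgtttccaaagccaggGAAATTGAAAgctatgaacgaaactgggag
Ifi205, chr1:174031860-174031909, minus strand: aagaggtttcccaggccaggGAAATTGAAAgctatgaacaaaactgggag
AI607873, chr1:173741821-173741870, minus strand: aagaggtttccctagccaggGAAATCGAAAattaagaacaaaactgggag
The Pydc3 and Pydc4 windows are identical over these 50 bases, and so are the Mndal and Ifi203 windows. The core shown began 35 to 73 bases before the table's start in the 5 members, 41 before it in AI607873 and 134 before it in Ifi205. A further match on the opposite strand, not shown, lay 24 bases after the start in Ifi205, and another lay at position -54 from a second listed start of Mndal. The gene spans given above can begin upstream of the start used in the promoter table, so a window can lie inside a span.

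With LPS, most of the family rose in knockout cells, by amounts that ran from 1.26 log2 (Aim2) to 4.92 log2 (Pydc4). Of the 9 members, 8 passed the filter of a mean of 1 TPM over the 7 libraries, but Pydc3 did so only through WT LPS and is described below with no test. In KO LPS against KO M0 the other 7 were all higher at a limma adjusted p under 0.05. Over all 11096 genes tested, 13.8% were higher and 24.3% lower. The median difference over the 9 members was 2.04 log2, against -0.24 over all tested genes. Scaling by the median ratio put that all-gene median at -0.0045, and the 7 members were higher there too.

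The DNA sensor Aim2 had the smallest rise of these 7. It was at 50.0 and 52.4 TPM in KO LPS, 41.5 and 39.6 TPM in WT LPS, 20.7 TPM in KO M0, and 19.6 and 23.5 TPM in WT M0. All 4 LPS libraries lay above all 3 unstimulated ones, and the KO LPS libraries lay above the WT LPS libraries. KO LPS exceeded KO M0 by 1.26 log2 (SE 0.21, limma adjusted p = 0.00082), a ratio of mean TPM of 2.47.

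Ifi204, whose protein carries a pyrin domain and HIN domains and has been tied to DNA sensing through STING in mouse cells, was among the most abundant. It was at 790.0 and 947 TPM in KO LPS, 932 and 648 TPM in WT LPS, 214 TPM in KO M0, and 182 and 202 TPM in WT M0. The KO LPS and WT LPS libraries overlapped and lay above every unstimulated one. The rise in KO LPS over KO M0 was 2.01 log2 (SE 0.24, limma adjusted p = 9.2e-05). Ifi203 followed at a lower level, with 269 and 361 TPM in KO LPS, 272 and 202 TPM in WT LPS, 74.8 TPM in KO M0, and 53.0 and 74.5 TPM in WT M0. Its rise in KO LPS over KO M0 was 2.04 log2 (SE 0.27, limma adjusted p = 0.00021).

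Mnda is named for the human myeloid cell nuclear differentiation antigen, and Mndal for its likeness to it. Mnda was at 868 and 961 TPM in KO LPS, 1087 and 789.8 TPM in WT LPS, 134 TPM in KO M0, and 139 and 124 TPM in WT M0. It had the highest level of the 9 members in all 4 LPS libraries, whereas Ifi204 led in all 3 unstimulated ones. The rise of Mnda in KO LPS over KO M0 was 2.76 log2 (SE 0.22, limma adjusted p = 6.4e-06). Mndal was at 501 and 577 TPM in KO LPS, 596 and 367 TPM in WT LPS, 87.6 TPM in KO M0, and 80.3 and 82.1 TPM in WT M0. Its rise was 2.60 log2 (SE 0.26, limma adjusted p = 3.0e-05), and in both genes the genotypes overlapped under LPS.

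In knockout cells Pyhin1 and Pydc4 had the largest rises of the 7. Pyhin1, whose human counterpart is an interferon-inducible nuclear protein, was at 434 and 584 TPM in KO LPS, 532 and 374 TPM in WT LPS, 35.7 TPM in KO M0, and 21.7 and 27.6 TPM in WT M0. The rise in KO LPS over KO M0 was 3.78 log2 (SE 0.27, limma adjusted p = 3.0e-06), a ratio of mean TPM of 14.2. Pydc4, listed in RefSeq as Ifi213, was at 70.1 and 99.1 TPM in KO LPS, 76.1 and 50.0 TPM in WT LPS, 1.79 TPM in KO M0, and 1.44 and 1.96 TPM in WT M0. Its rise was 4.92 log2 (SE 0.30, limma adjusted p = 1.4e-06), a ratio of mean TPM of 47.3 on a baseline of under 2 TPM in each unstimulated library. Without both WT LPS libraries, these 7 members were the family's genes that passed the filter, and all 7 were higher, in a fit where 1470 of 11183 genes were higher and 2673 lower.

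**Figure D1:**
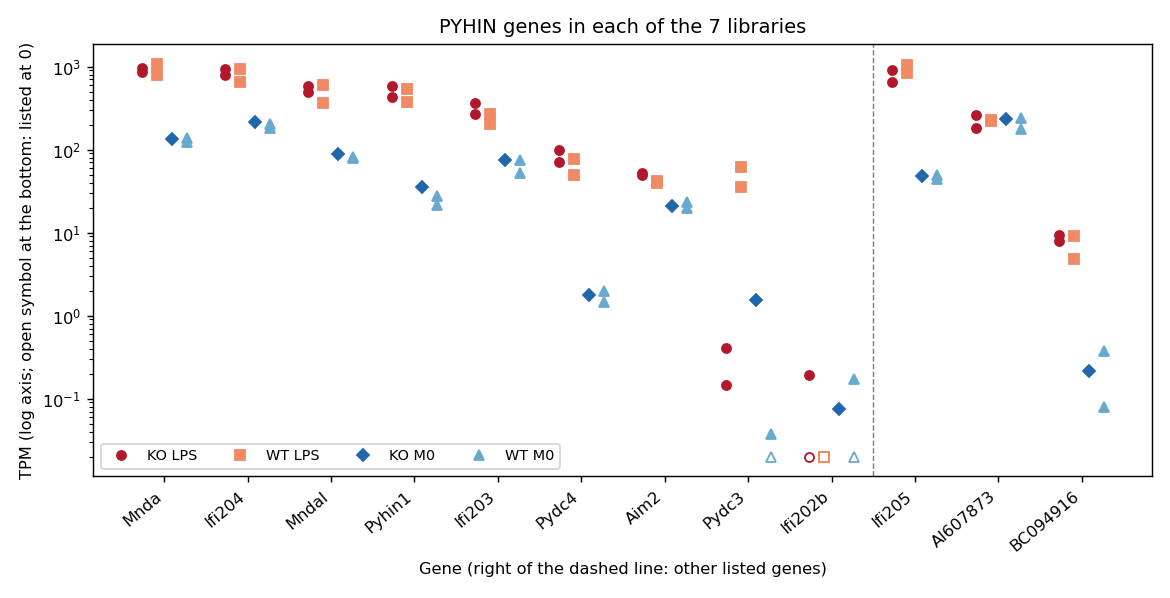
Level of each PYHIN gene in every library, on a logarithmic TPM axis, with one symbol per library and open symbols for a gene listed at 0. Members stand left of the dashed line and 3 other listed genes right of it. The 4 LPS libraries lie above the 3 unstimulated ones for 7 members, and Pydc3 is at 61.0 and 35.2 TPM in WT LPS but at 0.412 and 0.147 TPM in KO LPS.

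In wild-type cells the family was described against the same unstimulated baseline. Here 8 of the 9 members were higher in both WT LPS libraries than in both WT M0 libraries, and 25.0% of all tested genes were higher in that way. Since WT LPS levels entered the choice of the family, nothing is read from that share. The differences in log2(TPM + 1) were 0.89 (SE 0.17) for Aim2, 1.88 (SE 0.22) for Ifi203, 2.01 (SE 0.19) for Ifi204, 2.51 (SE 0.21) for Mndal and 2.81 (SE 0.18) for Mnda. Pyhin1 differed by 4.13 (SE 0.22) and Pydc4 by 4.54 (SE 0.25). Each of these 7 differences had the sign seen in knockout cells, and the contrast between genotypes was not tested. The median over the 9 members was 2.51 log2, against -0.21 over all tested genes.

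**Figure D2:**
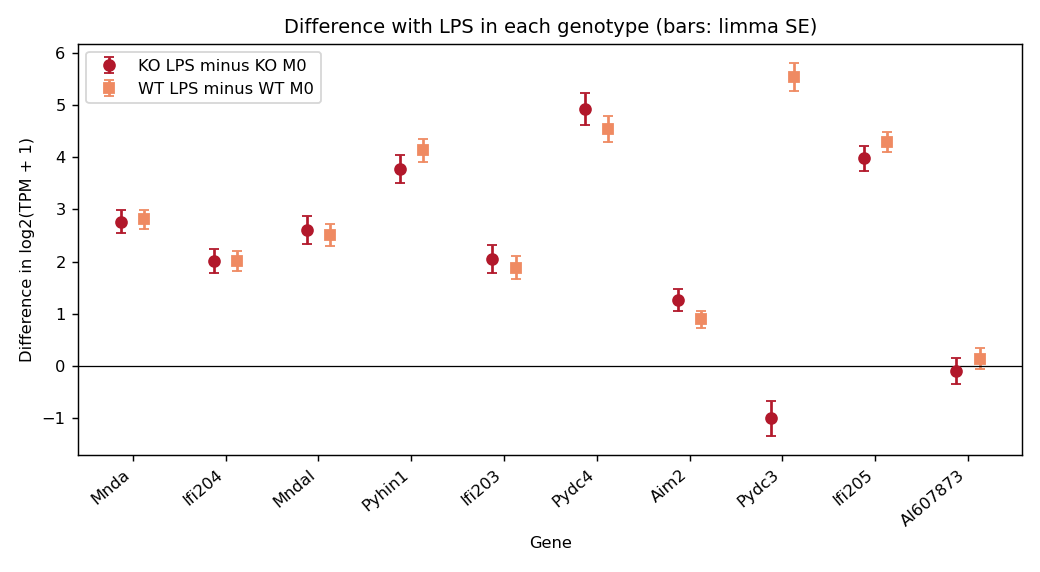
Difference in log2(TPM + 1) between LPS-treated and unstimulated cells for the members that passed the filter and for Ifi205 and AI607873, in knockout cells (circles) and wild-type cells (squares), with limma standard errors as bars. Pydc3 lies at -1.01 in knockout cells and 5.54 in wild-type cells, and AI607873 lies near 0 in both.

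Pydc3, listed in RefSeq as Ifi208, was the exception. It was at 0.412 and 0.147 TPM in KO LPS, 61.0 and 35.2 TPM in WT LPS, 1.56 TPM in KO M0, and 0 and 0.0379 TPM in WT M0. Only the 2 WT LPS libraries were above 2 TPM. Both KO LPS values were below that of the single KO M0 library, a difference of -1.01 log2 (SE 0.34) on values that are all under 2 TPM. The mean of Pydc3 over all libraries was 14.1 TPM, and 0.431 TPM without WT LPS, below the filter, so no test is given for it. WT LPS lay 5.54 log2 (SE 0.27) above WT M0, and KO LPS differed from WT LPS by -5.22 log2 (SE 0.27). These are the values by which the family was proposed, so no test is attached to them. Libraries with high Pydc3 under LPS were those with Xist, and the part of that in the Pydc3 difference was not tested.

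The contrast with Pydc4 is set out because these genes are near copies at their promoters. Of 235 aligned bases of the Pydc3 and Pydc4 windows, 233 were the same (99.1%). The 250 bases before each start, from RefSeq GRCm38.p6, read as follows, with the response element core in capitals.
Pydc3, chr1:173673415-173673664, plus strand: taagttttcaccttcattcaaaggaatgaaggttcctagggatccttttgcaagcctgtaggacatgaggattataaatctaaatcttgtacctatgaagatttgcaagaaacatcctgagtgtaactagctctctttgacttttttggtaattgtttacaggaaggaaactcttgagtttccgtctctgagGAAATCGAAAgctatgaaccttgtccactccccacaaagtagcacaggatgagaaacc
Pydc4, chr1:173599273-173599522, minus strand: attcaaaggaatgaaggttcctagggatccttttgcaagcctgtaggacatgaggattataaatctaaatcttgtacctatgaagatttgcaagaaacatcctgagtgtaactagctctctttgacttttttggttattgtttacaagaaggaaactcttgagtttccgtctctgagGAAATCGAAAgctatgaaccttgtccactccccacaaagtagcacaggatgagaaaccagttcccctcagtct
Pydc3 was at 0.589 and 0.148 TPM per 100 TPM of Pydc4 in KO LPS, and at 80.1 and 70.4 in WT LPS. In the single KO M0 library it was at 87.1, on levels of 1.56 TPM and 1.79 TPM, and in WT M0 it was at 0 and 1.93. Pydc4 thus overlapped between genotypes under LPS in the libraries where Pydc3 did not. For the transcripts only exact shared stretches were counted, which cannot be set against the identity of aligned promoter bases. Of the stretches of 100 bases in the longest coding transcript of Pydc3, 3.32% were also in Pydc4, and 3.62% of those of Pydc4 were in Pydc3. Over stretches of 31 bases these shares were 36.8% and 39.6%. Another gene, Ifi206, held more of the 100-base stretches of Pydc3 than Pydc4 did, at 5.64%. How reads common to such genes were assigned is not given in the sources used here. The levels of Pydc3 and Pydc4 are uncertain to that extent.

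**Figure D3:**
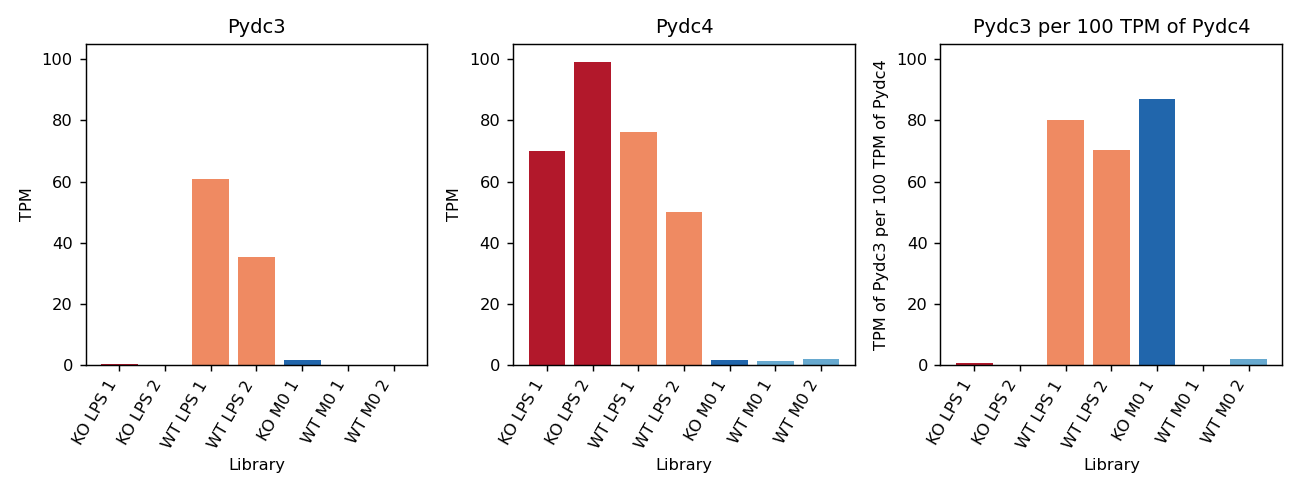
TPM of Pydc3 (left) and Pydc4 (middle) and the TPM of Pydc3 per 100 TPM of Pydc4 (right), one bar per library. Pydc4 is between 50.0 and 99.1 TPM in all 4 LPS libraries, while Pydc3 exceeds 2 TPM in the WT LPS libraries alone.

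Ifi202b, whose protein has HIN domains but no pyrin domain and can inhibit Aim2, was nearly silent. It was listed at 0 and 0.192 TPM in KO LPS, at 0 in both WT LPS libraries, at 0.0753 TPM in KO M0, and at 0 and 0.170 TPM in WT M0. It did not pass the filter, and no group stood apart. Other genes of the locus in the tables varied more. Ifi205, whose protein has been linked to Asc expression in mouse macrophages, was at 656 and 914 TPM in KO LPS, 1059.9 and 829 TPM in WT LPS, 48.1 TPM in KO M0, and 49.3 and 44.7 TPM in WT M0. It was 3.98 log2 higher in KO LPS than in KO M0 (SE 0.24, limma adjusted p = 1.2e-06). AI607873, listed in RefSeq as Ifi207, was at 182 and 262 TPM in KO LPS, 229.7 and 224 TPM in WT LPS, 236 TPM in KO M0, and 179 and 238 TPM in WT M0. Its groups overlapped in all 4 comparisons, and KO LPS differed from KO M0 by -0.11 log2 (SE 0.25, limma adjusted p = 0.764). Its promoter window holds the response element core and matches that of Mnda at 216 of 246 aligned bases (87.8%). BC094916, which had no RefSeq match, was at 9.39 and 7.84 TPM in KO LPS, 9.05 and 4.79 TPM in WT LPS, 0.216 TPM in KO M0, and 0.370 and 0.0795 TPM in WT M0.

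Before LPS, the knockout library was close to the wild-type ones for most of the family. In KO M0 against WT M0, 0 of the 7 members that pass the filter without WT LPS passed the adjusted threshold in limma, with or without the WT LPS libraries, and 0 had an unadjusted p under 0.05. Over all 11096 genes, 154 had an unadjusted p under 0.05, and at the adjusted threshold 0% were higher and 0.00901% lower, which is Tgm2 alone. Pydc3 was at 1.56 TPM in KO M0 and at 0 and 0.0379 TPM in WT M0, a difference of 1.33 log2 (SE 0.34), described with no test. Pyhin1 differed by 0.53 log2 (SE 0.27) and the other 6 tested members by between -0.05 and 0.25. In 5 of the 9 members the KO M0 value lay above both WT M0 values, against 36.2% of all tested genes.

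Under LPS, 7 of the 9 members overlapped between knockout and wild-type libraries. Aim2 was the member that was higher in both KO LPS libraries, as were 28.7% of all tested genes, with a difference of 0.33 log2 (SE 0.17). Pydc3 was the member that was lower, as were 21.0% of all tested genes. For the overlapping members that passed the filter, the differences in KO LPS against WT LPS ran from -0.02 (SE 0.18) for Mnda to 0.43 (SE 0.25) for Pydc4. The median over the 9 members was 0.17 log2, against 0.03 over all tested genes. Single libraries decided its sign and size: it was -0.081 when WT LPS replicate 2 was left out, 0.023 when KO LPS replicate 2 was, 0.30 when KO LPS replicate 1 was and 0.42 when WT LPS replicate 1 was. Within each LPS group the members at 1 TPM or more differed between replicates in a single direction. In WT LPS, replicate 1 was above replicate 2 in all 8 members at 1 TPM or more, by a ratio of 1.05 to 1.73, although replicate 1 was the higher in 33.9% of all tested genes. In KO LPS replicate 1 was the lower in all 7 such members, with ratios of 0.707 to 0.954, and it was the higher in 47.3% of all tested genes. In WT M0 replicate 1 was the higher in 1 of 7 such members (Mnda), with ratios of 0.711 to 1.12, and in 34.0% of all tested genes.

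Summed over the family, the members made up 2982 and 3581 TPM in KO LPS, 3598 and 2505 TPM in WT LPS, 570.2 TPM in KO M0, and 497 and 536 TPM in WT M0. As a share of all transcripts this was 0.298% and 0.358% in KO LPS and 0.360% and 0.251% in WT LPS, against 0.0570% in KO M0 and 0.0497% and 0.0536% in WT M0. The mean sum was 3282 ± 424 TPM in KO LPS and 3052 ± 773 TPM in WT LPS (SD, n = 2 each), which overlap. The make-up of the sum shifted with LPS. Pyhin1 took 14.5% and 16.3% of it in KO LPS and 14.8% and 14.9% in WT LPS, against 6.26% in KO M0 and 4.37% and 5.15% in WT M0. Aim2 took 1.68% and 1.46% in KO LPS and 1.15% and 1.58% in WT LPS, against 3.64% in KO M0 and 3.94% and 4.38% in WT M0. Ifi204 took 26.5% and 26.4% in KO LPS and 25.9% in each WT LPS library, against 37.5% in KO M0 and 36.6% and 37.7% in WT M0. In all 3 genes the shares in LPS libraries did not overlap those in unstimulated ones.

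**Figure D4:**
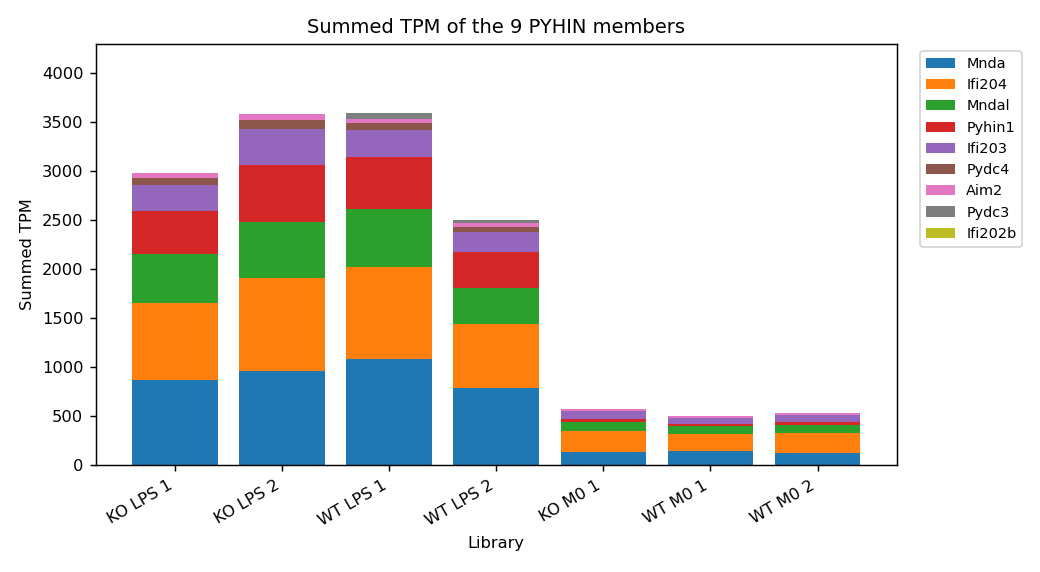
Summed TPM of the 9 members in each library, one stacked bar per library and one colour per gene. The LPS libraries reach 2505 to 3598 TPM and the unstimulated libraries 497 to 570.2 TPM.

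How far a level belongs to one gene depends on sequence shared with its neighbours. Stretches of 100 bases that also occur in another gene made up 56.9% of the longest coding transcript of Mnda, 17.9% of that of Pyhin1 and 16.8% of that of Ifi204. For Mnda the gene sharing most was Ifi205, which held 37.2% of its stretches. The share was 8.23% for Pydc3, 7.63% for Mndal, 6.12% for Pydc4, 3.31% for Ifi203 and 0% for Aim2 and Ifi202b. At 31 bases it ran from 1.20% for Ifi202b to 78.9% for Mnda. In GENCODE M21 the span of Mndal also overlaps that of Ifi203 by 22085 bases and that of Mnda by 16702 bases on one strand. The levels of Mnda, Mndal, Ifi203, Ifi204 and Pyhin1 are therefore uncertain. So are those of Pydc3 and Pydc4, which shared 42.1% and 45.8% of their stretches of 31 bases, while Aim2 shared 6.12%.

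**Figure D5:**
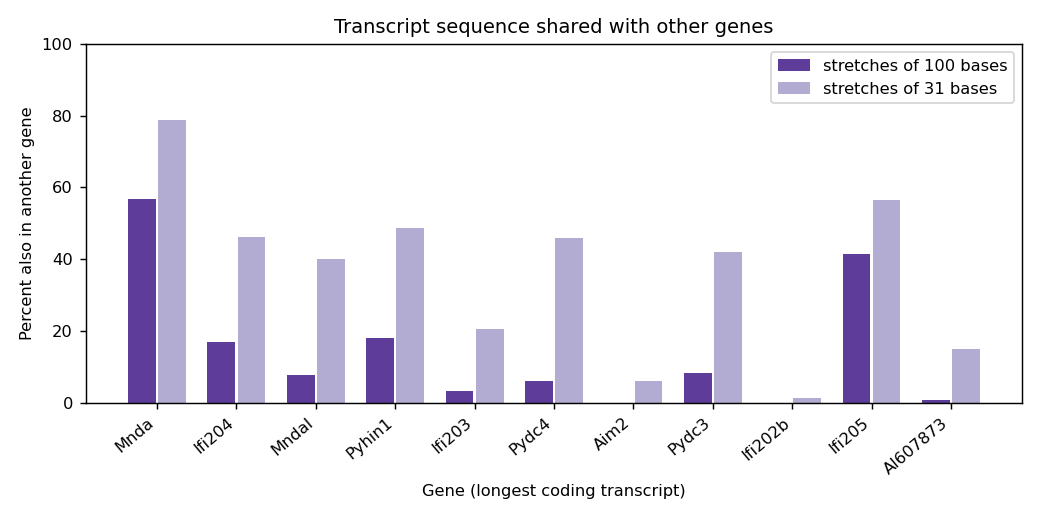
Share of each gene's longest coding transcript (GENCODE M21), in percent, that also occurs in another gene, over stretches of 100 bases (dark bars) and 31 bases (light bars). Mnda has 56.9% at 100 bases and Aim2 has 0%.

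In the wider pathway of DNA sensing and inflammasomes, more genes were higher than lower with LPS in both genotypes. Of 31 such genes tested, 14 were higher and 8 lower in KO LPS than in KO M0, where 13.8% of all tested genes were higher and 24.3% lower. In WT LPS against WT M0, 13 were higher and 9 lower, where 15.0% of all tested genes were higher and 29.6% lower. In both comparisons the lower genes made up about the share seen over all tested genes. The median of the 31 genes was 0.53 log2 in knockout cells against -0.24 over all genes, and 0.28 log2 in wild-type cells against -0.21. In KO LPS against KO M0, Il1b, the cytokine cleaved by caspase-1, was higher by 3.76 log2 (SE 0.22, limma adjusted p = 1.2e-06). Zbp1, a sensor of Z-form nucleic acid, was higher by 3.56 log2 (SE 0.24, limma adjusted p = 2.5e-06), and the RNA sensors Ddx58 and Ifih1 were higher by 3.76 log2 and 3.73 log2. The largest falls in both genotypes were those of Nlrp1b and Tlr9. Nlrp1b differed by -3.19 log2 in KO LPS against KO M0 and by -3.21 log2 in WT LPS against WT M0. Tlr9 differed by -2.92 log2 and -3.31 log2 in the same comparisons. Pycard, the gene of the adaptor ASC, fell as well. It differed by -1.02 log2 in KO LPS against KO M0 (SE 0.25, limma adjusted p = 0.0096). In WT LPS against WT M0 Pycard differed by -1.81 log2 (SE 0.21, limma adjusted p = 5.9e-05). Another faller was Tmem173, which encodes STING. It was at 12.9 and 13.6 TPM in KO LPS, 5.83 and 5.82 TPM in WT LPS, 31.7 TPM in KO M0, and 24.1 and 30.5 TPM in WT M0.

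Of the 31 DNA sensing and inflammasome genes, 1 was higher in KO LPS than in WT LPS. It was Tmem173, by 1.06 log2 (SE 0.19, limma adjusted p = 0.0066). Among all tested genes, 4.59% were higher and 2.58% lower in that comparison, and 1 of 31 is no more than the share higher. None of the 31 passed the limma threshold in KO M0 against WT M0, and 0 had an unadjusted p under 0.05. Of 16 type I interferon genes tested out of 18 listed, 11 were higher and 1 lower in KO LPS than in KO M0, against 13.8% and 24.3% of all tested genes. In WT LPS against WT M0, 10 were higher and 1 lower, against 15.0% and 29.6%. Over both lists 25 genes were higher and 9 lower in KO LPS than in KO M0, and the fit without both WT LPS libraries gave 25 and 9 as well. The median of the 16 interferon genes alone was 1.24 log2 in KO LPS against KO M0, where it was -0.24 over all tested genes. In WT LPS against WT M0 it was 0.87 log2, against -0.21 over all tested genes. Usp18, which restrains signalling from the interferon receptor, was higher in KO LPS than in KO M0 by 5.69 log2 (SE 0.29, limma adjusted p = 4.4e-07). Isg15, a ubiquitin-like modifier, was higher by 5.32 log2, and the transcription factor Stat2 by 3.52 log2. In KO LPS against WT LPS, 1 of the 16 passed, the receptor-associated kinase Tyk2, which was higher by 0.97 log2 (SE 0.18, limma adjusted p = 0.0078). In KO M0 against WT M0, 0 of the 16 passed in limma and 0 had an unadjusted p under 0.05. The count of 2 genes over both lists in KO LPS against WT LPS rested on single libraries: leaving out KO LPS replicate 1 gave 4, leaving out KO LPS replicate 2 gave 0, leaving out WT LPS replicate 1 gave 5 and leaving out WT LPS replicate 2 gave 1.

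Genes with the most similar profiles were found by comparing each gene's shares over the 7 libraries with those of a member, where 0 means the same profile. The search covered 8282 named protein-coding genes with a mean of at least 5 TPM. These values describe 7 libraries that share a treatment, and no test is attached to them. The nearest to Pyhin1 were Ifi47 (0.0128), Ddx60 (0.0183) and Ifih1 (0.0329), and the nearest to Pydc4 were Ms4a4c (0.0214), Ifit1 (0.0284) and D14Ertd668e (0.0299). Mnda was nearest to Trim30d (0.0276), Oas1g (0.0294) and Trim34a (0.0341), and Ifi204 to Etnk1 (0.0244), Znfx1 (0.0312) and Tdrd7 (0.0314). Ifi203 was nearest to Naa25 (0.0161), Aida (0.0213) and Usp25 (0.0219), Mndal to Coro2a (0.0248), and Aim2 to Ap3b1 (0.0166), Pik3r6 (0.0173) and Kpna3 (0.0177). Pydc3 met the bar of 5 TPM only through WT LPS, with a mean of 14.1 TPM, or 0.431 TPM without those libraries. Its profile is largely set by those WT LPS values, which entered the choice of the family, so nothing is read from its distances. The nearest to Pydc3 among the genes searched were Ly6c2 (0.229), Cyp1b1 (0.256), Sema3c (0.266), Idi1 (0.279) and Slc6a9 (0.280). None came as close to it as the genes named for the other members did to theirs. Xist, which is not protein-coding, was outside the search, and like Pydc3 it was high in the WT LPS libraries alone.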

How the data were processed

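The 7 libraries hold total RNA of mouse bone marrow-derived macrophages, grouped by their titles. The authors deposited 1 table per library, whose values are taken to be TPM scaled by them before deposit because each library sums to 1000000. Neither labels nor file headers name the unit. The submitters' processing notes name the build mm10. Aligner, quantifier, annotation, strand setting and read length were not given in the sources used here. Depth is unknown. Some genes that the naming rule selects are not reported here.

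Genes with a mean of at least 1 TPM over the 7 libraries were kept (11096 of 23337). On log2(TPM + 1), limma 3.58.1 (R 4.3.3) estimated a mean per group from every library, moderating variances along the mean level (residual degrees of freedom 3, prior 7.304), and p-values were adjusted by Benjamini-Hochberg over all tested genes at 0.05. Comparisons with WT LPS, and all of Pydc3, which passed the filter only through WT LPS, were described for the members, and the comparisons with WT LPS were tested for the other genes of the pathways. Simulated data were used to test the fit. The members and the gene lists were chosen with earlier results of these data known. Named genes were all members, the other PYHIN genes in the tables, Tgm2, sex-linked genes, up to 4 genes per pathway list and comparison with the smallest p (a selection of which is printed), and for each member at a mean of 5 TPM or more the 3 nearest protein-coding genes by profile, 5 for Pydc3. Nlrp1b is named in addition for its fall with LPS, and Ifi206 for its shared sequence. Tables were handled with Python 3.11.15 and pandas 2.3.3. Transcript sharing used GENCODE M21, and names, coordinates and promoters are from RefSeq GRCm38.p6, the assembly on which mm10 is built. Alternatives were scaling, pseudocount, filter, threshold, a replicate block and leaving out libraries.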

Additional observations from a re-analysis of the deposited data

Results flagged for a closer look

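The values of Pydc3 lay in opposite directions with LPS in knockout and wild-type cells. KO LPS differed from KO M0 by -1.01 log2, with both KO LPS libraries below the single KO M0 library. WT LPS differed from WT M0 by 5.54 log2, with both WT LPS libraries above both WT M0 libraries. Neither value nor the difference between them was tested, because the WT LPS levels of Pydc3 led to the choice of the family and the gene passed the filter only through them. The knockout values are all under 2 TPM.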

How the results depend on the processing

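The 7 members that were higher in KO LPS than in KO M0 passed the threshold in every alternative run, with 0.0488 the highest adjusted p (Ifi203). Pathway genes past the threshold in KO LPS against WT LPS numbered 2, and 0 with no filter on low values, 4 with the replicate block and 0 to 5 when leaving out a library. The median member difference in WT LPS against WT M0, 2.51 log2, ran from 2.16 to 2.86 when leaving out a library. In KO M0 against WT M0, small differences changed sign. Aim2 (-0.046) ran from -0.17 to 0.078, Mnda (0.031) from -0.052 to 0.11 and Pydc4 (0.052) from -0.086 to 0.19 when leaving out a library, and Mnda was at -0.018 with median-ratio scaling and -0.049 with the replicate block. The cause was not tested. Replicate numbers are not stated to pair libraries, and deviations of same-numbered libraries correlated at 0.18 (KO LPS and WT LPS), 0.30 (KO LPS and WT M0) and 0.08 (WT LPS and WT M0) over 11096 genes. Median-ratio scaling moved the split of called genes in KO LPS against KO M0 to 2117 higher and 1840 lower, against 1533 and 2700 without it, and in WT LPS against WT M0 to 2489 and 2274, against 1665 and 3284. Genes called in KO LPS against WT LPS were 509 higher and 286 lower, and with no filter 20 and 13, without KO LPS replicate 2 244 and 141 and without WT LPS replicate 2 306 and 122. In KO M0 against WT M0 they were 0 and 1, with no filter 186 and 39, and with the compared groups alone 17 and 23.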
